A study of Mus musculus with 63 samples.

Results

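Mouse small intestinal organoids grown for 10 days in Wnt3-conditioned medium (Wnt3-CM, medium taken from cells that secrete the ligand Wnt3) were compared with organoids of the same genotype grown for 10 days in the standard medium. The members are the 6 RNA-Seq libraries labelled as vehicle-treated, day 10 and this genotype, 3 in each medium, out of 63 samples in the series, and they were chosen by their labels alone. The genotype of both groups was Cdk8 fl/fl, Cdk19 ko/ko and VillinCreERT2, on C57BL/6, so that CDK19 was absent by genotype in both. VillinCreERT2 is a Cre recombinase that is driven by the Villin promoter of the intestinal epithelium and becomes active with 4-hydroxytamoxifen (4-OHT). Both groups received ethanol (EtOH, 0.001%) for 24 h, so Cre was not induced and the floxed Cdk8 was not deleted on purpose. Organoids were cultured in Matrigel with Noggin-conditioned medium, R-spondin-conditioned medium and EGF. The 6 libraries of the same design and day that received 100 nM 4-OHT for 24 h, which deletes Cdk8, are set beside them where a value is compared.

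Organoids hold epithelium and no other tissue, and a conditioned medium carries whatever its producer cells and their serum release, so Wnt3 is not the only thing that differs between the media. The share of Wnt3-CM in the medium is not given in the labels of these libraries, and no library with a conditioned medium from cells without Wnt3 was used here. The authors deposited the Wnt3-CM libraries and the standard-medium libraries in separate count tables. The medium and whatever else differs between the count tables thus cannot be told apart in any value that follows. Whether the count tables stand for separate runs of experiments is not in the labels. The labels do not say whether the 3 libraries of a group came from separate mice or cultures, so p-values measure the spread between these libraries, which may be technical.

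The libraries were alike in depth, and replicate 1 stood apart from replicates 2 and 3 in each of the 4 groups of day 10. The chi-square value per gene between replicate 1 and another replicate of its group was 8.1 to 13.7, and between replicates 2 and 3 it was 2.55 to 6.48. With replicate 1 of all 4 groups left out, an alternative chosen after seeing the data, 3324 genes were called between the media with EtOH (1645 higher and 1679 lower), against the 3346 reported below. The total count of reads assigned to genes was 19110500 to 20225762 in standard medium with EtOH and 19183905 to 19374952 in Wnt3-CM with EtOH. Mitochondrially encoded genes took 1.5 to 1.6% of counts in standard medium and 1.45 to 1.56% in Wnt3-CM, and ribosomal protein genes took 2.47 to 2.74% and 2.18 to 2.39%. Cdk8 stood at 57.3, 54 and 56.2 CPM (read counts scaled to the size of the library) in standard medium and at 50.9, 47.5 and 46.4 CPM in Wnt3-CM. Cdk19, the paralog of Cdk8, stood between 38.5 and 42.2 CPM in the 6 libraries although the genotype is a knockout. Counts here are summed over the whole gene, and Cdk8 was also 46.9 to 57.5 CPM in the 4-OHT libraries, so these values do not check a deletion of exons. Levels in CPM are not divided by transcript length and are compared between libraries, never between genes.

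Of 14337 genes tested, 3346 (23.3%) were called. A call needed an edgeR quasi-likelihood p that stayed under 0.05 after Benjamini-Hochberg adjustment, and a change of more than 1.5-fold. Of these, 1698 genes (11.8%) were higher and 1648 (11.5%) lower in Wnt3-CM. These shares are the background against which each gene group below is read. Without the fold threshold, 7665 genes (53.5%) passed, and at 8765 genes (61.1%) the 3 libraries of the media did not overlap. Among the called genes, 3278 had groups that did not overlap. The median log2 difference over all genes tested was -0.03, so the group medians given below can be read almost directly. In the 4-OHT libraries, the same comparison of media called 1455 genes (10.1%), 784 higher (5.47%) and 671 lower (4.68%). The difference between the vehicle contrast and the 4-OHT contrast, tested as an interaction in the same fit, was called for 1911 genes (13.3%).

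Wnt ligands bind Frizzled receptors with LRP5 or LRP6 coreceptors at the cell surface, which protects beta-catenin from destruction and lets it act with TCF factors on target genes. In the small intestine, Wnt signals at the crypt base maintain Lgr5-positive stem cells and the Paneth cells next to them, which make Wnt3 themselves. R-spondins strengthen the response by removing the ubiquitin ligases that clear Frizzled, and both media here contained R-spondin. Target genes such as Axin2, Nkd1, Notum and Znrf3 encode brakes on the pathway and are widely read as a measure of its activity.

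The Wnt target genes were not higher in Wnt3-CM as a group. Of 22 tested members of the list of Wnt feedback and target genes, 1 was called higher and 8 were called lower, with a median log2 difference of -0.32. Axin2 (chr11:108920349-108950783, GRCm38), a scaffold of the complex that destroys beta-catenin, stood at 151, 143 and 137 CPM in standard medium and at 68, 61.3 and 64.5 CPM in Wnt3-CM. The groups did not overlap, with means of 144 ± 6.95 and 64.6 ± 3.34 CPM (SD, n = 3 each), a log2 difference of -1.16 (SE 0.07, edgeR adjusted p = 2.58e-11). Ephb3, a receptor that positions cells along the crypt, stood at 80.9, 77.4 and 76.3 CPM and at 32.9, 32.6 and 33.4 CPM, a log2 difference of -1.25 (SE 0.07, edgeR adjusted p = 9.3e-12). Nkd1, an inhibitor that acts on Dishevelled, was low throughout, at 1.85, 1.42 and 1.32 CPM against 0.0536, 0.426 and 0.16 CPM. Notum, an enzyme that inactivates Wnt ligands, was the member called higher, from 0.292, 0.254 and 0.558 CPM to 0.75, 0.851 and 0.638 CPM (log2 1.01, SE 0.39, edgeR adjusted p = 0.0356). Its call was lost with no filter on low counts, with DESeq2, against standard medium of day 7, and without replicate 1 or 2 of either medium, which left 0 members called higher by edgeR. Tiam1, Apcdd1, Cdx1, Lgr5 and Ascl2 were the other members called lower. Without replicate 1 of Wnt3-CM, the Apcdd1 difference of -0.56 was under the fold threshold. The remaining 13 members, Myc, Ccnd1, Sox9, Znrf3, Rnf43 and Cd44 among them, did not pass, with log2 differences from -0.62 (Sp5) to 0.09 (Ephb2). Standard medium of day 7 as the reference gave 0 members called higher and 10 lower by edgeR, with a median of -0.52. With 4-OHT, 0 of the 22 members were called in either direction by edgeR and the median was -0.03, and 7 members had a called difference between the contrasts. There, Axin2 stood at 64.2, 62.3 and 67.9 CPM in standard medium and at 58.3, 63.4 and 67.6 CPM in Wnt3-CM, so the standard-medium vehicle libraries were the high ones among the 4 groups.

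Wnt3, made by Paneth cells and here also the ligand of the conditioned medium, stood at 13.3, 13.4 and 13.2 CPM in standard medium and at 8.95, 11.5 and 9.2 CPM in Wnt3-CM. Its log2 difference of -0.43 (SE 0.11, edgeR adjusted p = 0.00275) was under the fold threshold. Of 21 ligand and secretion genes, 8 were expressed enough to test. Wnt7a was called higher, from 0.195, 0 and 0 CPM to 1.5, 0.479 and 0.904 CPM, and Wnt6 from 0.486, 0.659 and 0.457 CPM to 1.02, 0.798 and 1.28 CPM. Both stayed at the lower edge of detection. Wnt6 lost its call without replicate 3 of either medium, and with replicate 1 of all groups left out 0 of 7 tested ligand genes were called by edgeR. Wnt9b was called lower (log2 -0.92), and not with DESeq2, against day 7, or without replicate 1 of standard medium or replicate 2 or 3 of Wnt3-CM. Of 13 receptors and coreceptors, 0 were called higher and 4 lower, with a median of 0.03. The 4 were Ror2, a receptor for non-canonical Wnts (log2 -1.24, SE 0.12, edgeR adjusted p = 4.45e-08), Lgr5, a receptor for R-spondins, and the Frizzled genes Fzd6 (-0.66) and Fzd9 (-0.65). Without replicate 3 of standard medium, the Fzd9 difference of -0.57 was under the fold threshold. The Frizzled genes Fzd5 and Fzd7 and the coreceptors Lrp5 and Lrp6 had log2 differences of -0.14, 0.27, 0.03 and 0.21, and did not pass the fold threshold.

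Of 23 tested genes of the crypt base stem cell, 11 were called lower and 0 higher in vehicle-treated organoids, with a median log2 difference of -0.47, while with 4-OHT 1 was called lower and the median was -0.07. With day 7 as the reference, 5 were called higher and 10 lower, with a median of -0.35. Lgr5 (chr10:115450311-115587780) stood at 161, 183 and 178 CPM in standard medium and at 76, 90.1 and 99.6 CPM in Wnt3-CM (log2 -0.97, SE 0.11, edgeR adjusted p = 3.07e-06). Olfm4 (chr14:79984081-80023139), a secreted glycoprotein of these cells, stood at 2581, 2553 and 2348 CPM and at 748, 761 and 852 CPM (log2 -1.66, SE 0.09, edgeR adjusted p = 7.12e-12). Ascl2, a transcription factor that maintains the stem cell program, stood at 20.4, 25.1 and 24 CPM and at 10.1, 12 and 14.5 CPM (log2 -0.92, SE 0.14, edgeR adjusted p = 2.29e-05). In each of these 3 genes, the lowest library of standard medium lay above the highest library of Wnt3-CM. Aqp4 (-1.35), Smoc2 (-1.19) and Nav1 (-1.19) were also called lower. Bmi1, Prom1, Cdk6 and Soat1 were the 4 members with a positive difference, and none of them passed. With 4-OHT, Lgr5 was 60.5, 66.1 and 72.5 CPM in standard medium and 52.1, 71.9 and 61.6 CPM in Wnt3-CM, and the difference between the contrasts was called for Lgr5 (log2 -0.87, edgeR adjusted p = 0.000811) and Olfm4 (log2 -1.14, edgeR adjusted p = 1.13e-06) and not for Ascl2 (log2 -0.57, edgeR adjusted p = 0.0563).

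**Figure D1:**
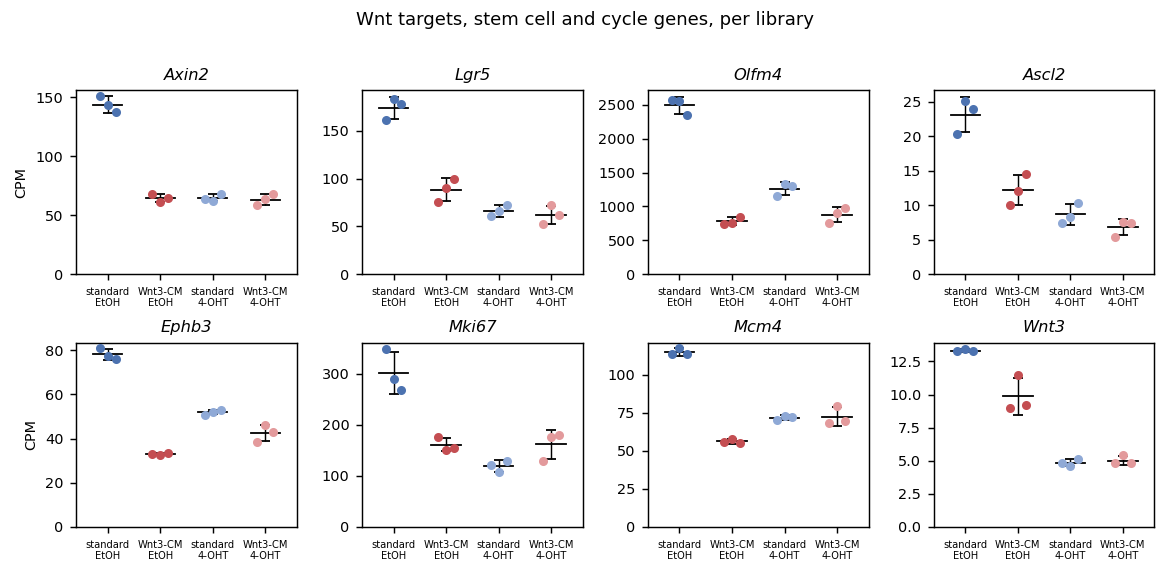
CPM (vertical axes, linear, starting at 0) of Axin2, Lgr5, Olfm4, Ascl2, Ephb3, Mki67, Mcm4 and Wnt3 in the 4 day 10 groups, with a point for each library and the mean ± SD of 3 libraries. Axin2 sits at 137 to 151 CPM in standard medium with EtOH and between 58.3 and 68 CPM in the other 3 groups.

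Most cell cycle genes were called lower in the vehicle-treated organoids, and 1 with 4-OHT. Of 30 genes of DNA replication and the G1/S transition, 27 were called lower and 0 higher, with a median log2 difference of -0.89. Of 30 genes of mitosis, 24 were called lower and 0 higher, with a median of -0.82. At all 60 genes the 3 Wnt3-CM libraries were below the 3 standard-medium libraries, against 31.6% of all genes tested. Mki67, the proliferation marker Ki-67, stood at 348, 289 and 268 CPM in standard medium and at 175, 151 and 155 CPM in Wnt3-CM (log2 -0.91, SE 0.13, edgeR adjusted p = 5.3e-05). Mcm4, a subunit of the helicase that opens DNA for replication, stood at 114, 118 and 114 CPM and at 56, 57.7 and 55 CPM (log2 -1.03, SE 0.06, edgeR adjusted p = 6.26e-11). These 2 genes show the size that was typical for the lists. Among the larger falls in the replication list were Gins2 (-1.41), a helicase cofactor, Cdc6 (-1.14), which loads the helicase, and Chaf1a (-1.11), a histone chaperone. In the mitosis list they were Birc5 (-1.36), the survivin of the chromosomal passenger complex, Cdca3 (-1.14), the kinase Ttk (-1.08) and the kinesin Kif20a (-1.04). With 4-OHT, 1 replication gene and 0 mitosis genes were called lower and the medians were -0.01 and 0.17. Mki67 was 121, 107 and 129 CPM in standard medium with 4-OHT and 129, 176 and 179 CPM in Wnt3-CM with 4-OHT, so its libraries overlapped between the treatments in Wnt3-CM and not in standard medium. The difference between the contrasts was called lower for 28 and 27 of the 30 genes, against 7.11% of all genes tested. Cdkn1a, the cell cycle inhibitor p21, which is a member of the villus tip list, was higher in Wnt3-CM, from 257, 247 and 267 CPM to 748, 715 and 711 CPM (log2 1.49, SE 0.08, edgeR adjusted p = 6.1e-12). With standard medium of day 7 as the reference, its difference turned to -0.28 (edgeR adjusted p = 0.0189), and the called members of the cell cycle lists dropped to 17 replication genes (median -0.63) and 13 mitosis genes (median -0.53), with 0 higher by edgeR in both.

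The gene list with the highest median was that of the interferon-stimulated genes. Interferons bind receptors that activate STAT factors, which join IRF9 and bind the interferon-stimulated response element (ISRE) in the promoters of antiviral genes, and epithelial cells of the gut keep such genes ready against enteric viruses. To show what such a promoter looks like, stretches of 30 bases around the letters GAAA, any 2 bases and GAAA again are given for 3 members with large differences, from RefSeq promoter windows that run from 250 bases before to 50 bases after each start (GRCm38.p6). Capitals mark the letters of a single match in each stretch, and where they read TTTC the motif lies on the opposite strand. In the Isg15 stretch another match overlaps the marked one and begins in the lower-case letters.
Isg15, chr4:156200865-156200894, minus strand: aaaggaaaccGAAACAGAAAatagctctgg
Ifit1, chr19:34640775-34640804, plus strand: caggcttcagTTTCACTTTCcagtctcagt
Ifit3, chr19:34583363-34583392, plus strand: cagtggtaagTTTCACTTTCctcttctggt
The search covered both strands, and overlapping matches were counted once per promoter. An entry was matched for 16 of the 23 tested members, too few to speak for the list, and 9 of these promoters held the letters (Bst2, Cxcl10, Gbp2, Ifit1, Ifit3, Isg15, Oas1a, Rsad2 and Stat2). Among the 9946 tested genes with an entry, 356 (3.579%) held them, as did 82 of 1189 genes called higher (6.897%) and 37 of 1180 called lower (3.136%). Of 3 other motifs searched the same way, the AP-1 letters TGANTCA stood in 6.565% of tested genes, 10.43% of those called higher and 8.983% of those called lower. The TCF core letters CTTTGA stood in 14.81%, 16.06% and 17.71%, and the PPAR repeat (AGGTCA, any base, AGGTCA) in 6 tested genes. A match of letters is a description of the sequence and not a measurement of binding.

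All 23 tested interferon-stimulated genes were called higher in Wnt3-CM, with a median log2 difference of 2.93, and the libraries of the groups overlapped at none of them, where 29.5% of all genes tested had the 3 Wnt3-CM libraries above the other 3. Ifit3, an antiviral protein with tetratricopeptide repeats, stood at 0.195, 0.355 and 0.457 CPM in standard medium and at 22.9, 39 and 28.9 CPM in Wnt3-CM (log2 6.48, SE 0.41, edgeR adjusted p = 8.41e-08). Oasl2, of the 2'-5'-oligoadenylate synthetase family, stood at 2.33, 2.69 and 2.59 CPM and at 114, 137 and 130 CPM (log2 5.64, SE 0.13, edgeR adjusted p = 1.22e-16). Usp18, a protease that removes ISG15 from proteins and restrains the receptor, stood at 0.146, 0.203 and 0.152 CPM and at 7.5, 11.6 and 9.47 CPM (log2 5.78, SE 0.34, edgeR adjusted p = 3.45e-11). Ifit3 and Usp18 were near the limit of detection in standard medium and well above it in Wnt3-CM, and Oasl2 was detected in both. Ifi44 had 2, 1 and 1 counts in standard medium and 210 counts in all in Wnt3-CM, a ratio of 56.0 (95% interval 21.5 to 207, counting error only). Isg15, a ubiquitin-like modifier, stood at 0.827, 0.608 and 0.913 CPM and at 22.2, 26.3 and 24.3 CPM (log2 4.94). Irf7, a transcription factor of the type I interferon response, stood at 13.9, 13.9 and 16.8 CPM and at 105, 134 and 123 CPM (log2 3.02). Of the factors that carry the signal, Stat2 rose by 1.85 and Irf9 by 2.52 on the log2 scale, and the smallest difference of the list was that of Mx1 (0.83, edgeR adjusted p = 0.0418). The call of Mx1 was lost with no filter on low counts, with DESeq2, and when any 1 library other than replicate 1 of Wnt3-CM was left out (edgeR adjusted p from 0.0526 to 0.131), so 22 of 23 were called there. Only 11 of the 23 had 10 or more counts in each of the 12 libraries, and all 11 were called higher in a fit limited to such genes (median 2.81). The other 12 entered the test although they were low in at least 1 library. The near-identical copies of Ifit3 and of the Oas genes make the assignment of reads among family members uncertain.

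With 4-OHT, 19 of the 23 genes were also called higher, against 5.47% of all genes tested, with a median of 2.31, and Gbp2, Cxcl10 and Mx1 were among the 4 that did not pass. Ifit1 stood at 9.59, 13.7 and 8.58 CPM in standard medium with 4-OHT, above the 1.75, 2.28 and 3.15 CPM of standard medium with EtOH, and rose to 45, 60.3 and 54.9 CPM and to 64.5, 83.6 and 74.9 CPM in Wnt3-CM. Its contrasts of 2.33 and 4.96 differed (log2 2.63, edgeR adjusted p = 4.3e-05). The difference between the contrasts was called for 12 of the 23 genes, 11 of them larger with EtOH. Ifi27l2a was the exception, with a log2 difference of 2.73 with EtOH and 4.90 with 4-OHT.

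**Figure D2:**
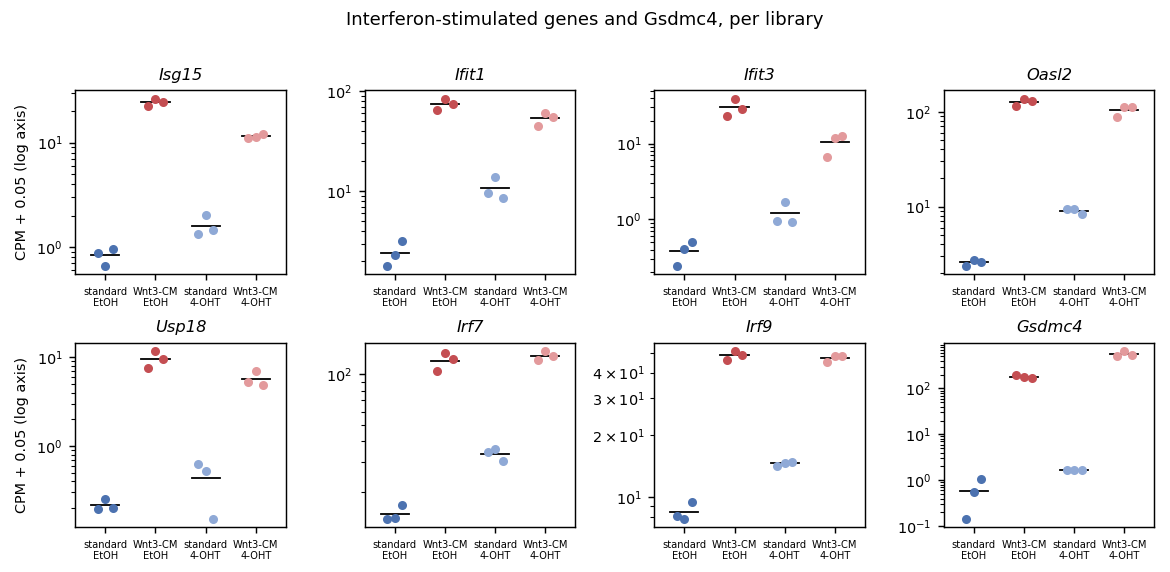
CPM + 0.05 on a log axis for 7 interferon-stimulated genes (Isg15, Ifit1, Ifit3, Oasl2, Usp18, Irf7 and Irf9) and Gsdmc4 in the 4 day 10 groups, with a point for each library and a bar at the group mean. Every library in Wnt3-CM lies above every library in standard medium of the same treatment for each of the 8 genes.

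The 10 largest rises among well-expressed genes held further antiviral genes and a cluster of gasdermins. Gasdermins are proteins that can form pores in membranes, and the mouse Gsdmc genes are made in intestinal epithelium. Gsdmc2, Gsdmc3, Gsdmc4 and Gsdmcl2 lie within 88.0 kb of chromosome 15 (chr15:63824346-63912297, GRCm38), and all 4 were among the 10. Gsdmc2 stood at 0, 0.152 and 0.507 CPM in standard medium and at 99.8, 96 and 94.1 CPM in Wnt3-CM (log2 8.76, SE 0.27, edgeR adjusted p = 1.17e-11). Gsdmc4 averaged 0.540 ± 0.460 CPM and 181 ± 11.2 CPM (SD, n = 3 each, log2 8.39, SE 0.22, edgeR adjusted p = 3.3e-13). Gsdmc3 had 0, 1 and 1 counts in standard medium and 1343 in all in Wnt3-CM, a ratio of 716 (95% interval 198 to 5920), and Gsdmcl2 had 1 count against 770, a ratio of 821 (95% interval 147 to 32480). So the 4 genes went from nearly undetected to clearly expressed in each Wnt3-CM library. In the 4-OHT libraries Gsdmc4 went from 1.6, 1.62 and 1.64 CPM to 517, 639 and 543 CPM, and the contrasts of these 4 genes were not called different between the treatments. The members are close paralogs, so how reads were shared among them is uncertain. The other rises of this rank were Slc14a1, a urea transporter (2, 0 and 2 counts against 443 in all, a ratio of 118, 95% interval 45.8 to 435), Rtp4 (log2 6.43) and Oas3 (5.78), both interferon-stimulated, Ifit3 and Usp18 as above, and Fam129a (5.69).

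Of 24 tested genes of injury repair and of the fetal-like state of the epithelium, 19 were called higher and 1 lower (Crip1), with a median log2 difference of 1.67. Crip1 lost its call without replicate 2 of Wnt3-CM (-0.57) and with at least 10 counts in every library (-0.58). Areg, a ligand of the EGF receptor, stood at 23.6, 34.5 and 41.8 CPM in standard medium and at 314, 366 and 342 CPM in Wnt3-CM (log2 3.36, SE 0.18, edgeR adjusted p = 5.05e-08). Ly6a, the surface antigen Sca-1 that marks repairing epithelium, stood at 11.5, 14.7 and 15.7 CPM and at 76.5, 138 and 115 CPM (log2 2.98, SE 0.23, edgeR adjusted p = 2.31e-06). Il1rn (3.31), an antagonist of the interleukin-1 receptor, Ly6c1 (3.16) and Cd55 (2.99), a brake on complement, rose by like amounts. Clu, which marks revival stem cells, stood at 86.2, 67.1 and 60.2 CPM and at 129, 127 and 137 CPM (log2 0.88, SE 0.12, edgeR adjusted p = 1.59e-05). Ly6a is also an interferon-responsive gene, so the lists are not independent in what their members read. With 4-OHT, 9 members were called higher and 1 lower and the median was 0.31. A called difference between the contrasts was found in 17 members, each in the positive direction (EtOH minus 4-OHT), where 6.21% of all genes tested had a called difference in that direction.

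Ligands and feedback genes of the EGF and MAPK pathway, whose ligand EGF was in both media, and the immediate early genes that this pathway induces had more members called higher than lower. Of 21 tested EGF and MAPK genes, 10 were called higher and 1 lower (Lrig1, an inhibitor of EGF receptors that also marks stem cells). The ligands Areg, Btc (2.49) and Hbegf (1.66), the phosphatase gene Dusp6 (1.99), the inhibitors Spry4 (1.89) and Errfi1 (1.45) and the receptor Egfr (0.99) were among those that rose. Btc stood at 13.8, 21.3 and 20.9 CPM in standard medium and at 89.7, 118 and 107 CPM in Wnt3-CM. Of 21 immediate early and serum response genes, 12 were called higher and 0 lower, with a median log2 difference of 1.00. Fos, a subunit of the AP-1 factor, stood at 14.4, 17.8 and 20.5 CPM and at 104, 117 and 105 CPM (log2 2.63, SE 0.10, edgeR adjusted p = 4.16e-14). Fosl1 (2.50) and Junb (1.82), which also encode AP-1 subunits, and the factor Klf6 (1.82) rose as well. Jun, Jund, Srf and Nr4a1 did not pass, with log2 differences between -0.31 and 0.50. With 4-OHT, 4 and 7 genes of the 2 lists were called higher and 0 lower, and Fos went from 16.8, 19.8 and 16.5 CPM to 42, 45 and 42.5 CPM. The Fos contrasts of 2.63 and 1.29 differed (log2 1.34, edgeR adjusted p = 7.76e-07).

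Of 16 BMP and TGF-beta genes, 9 were called higher and 3 lower, with a median of 0.68. Among the 3, Bmp7 (-0.59) lost its call with DESeq2, with the 6 libraries alone and with at least 10 counts in every library. Bmpr2 (0.59), among the 9, lost its call with upper quartile normalization. The 4-OHT libraries had 6 called higher and 1 lower, and day 7 as the reference gave 7 and 3 (median 0.53). BMPs act against Wnt on the upper crypt and villus, and Noggin, which binds BMPs, was in both media. Tgfbi, a matrix protein induced by TGF-beta, stood at 10.3, 7.71 and 8.83 CPM in standard medium and at 54.5, 59.6 and 61.8 CPM in Wnt3-CM (log2 2.71, SE 0.10, edgeR adjusted p = 2.01e-14). The ligands Bmp8b (2.98) and Bmp2 (2.35) also rose. Id1, a direct target of BMP, did not pass (0.09), Id3 rose by 1.03 and Id2 fell by 1.10 on the log2 scale, so the target genes of the list did not all move the same way.

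Paneth cell genes were divided. Paneth cells at the crypt base release lysozyme and alpha-defensins against microbes. Of 24 tested genes, 10 were called lower and 3 higher, with a median log2 difference of -0.43. Lyz1, lysozyme, stood at 5727, 5891 and 5851 CPM in standard medium and at 3672, 4032 and 3758 CPM in Wnt3-CM (log2 -0.61, SE 0.08, edgeR adjusted p = 3.01e-06), and without replicate 1 of Wnt3-CM its difference of -0.58 was under the fold threshold. The alpha-defensins Defa5 (-2.69), Defa2 (-2.50) and Defa21 (-2.04) fell further, though against standard medium of day 7 the difference was -0.68 for Defa2 and -1.61 for Defa5, and Lyz1 (0.11), Lyz2 (-0.13) and Defa20 (-0.05) were not called. Defa21 stood at 59.4, 86 and 87 CPM against 15.7, 18.6 and 22.2 CPM. Defa17, Defa24, Defa26 and Defa30 did not pass, with log2 differences between -0.29 and 0.21. The defensin genes are near-identical copies, so counts of single members are uncertain. Ang4, an angiogenin with antimicrobial activity, moved the other way, from 284, 292 and 298 CPM to 1082, 1230 and 1237 CPM (log2 2.02, SE 0.09, edgeR adjusted p = 2.02e-13). With 4-OHT, 8 genes were called lower and 2 higher. Lyz1 was then 1499, 1757 and 1616 CPM in standard medium and 1248, 1105 and 1390 CPM in Wnt3-CM, and Ang4 62.6, 78.2 and 63.1 CPM and 204, 179 and 214 CPM. The contrasts of Lyz1, Ang4, Defa2, Defa5 and Defa21 were not called different between treatments.

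Goblet cell genes moved in both directions, with 5 of 19 called higher and 3 lower and a median of -0.21. Without replicate 3 of standard medium or replicate 2 of Wnt3-CM, 3 were called higher and 3 lower. Leaving out replicate 1 of Wnt3-CM gave a median of -0.12. Muc2, the main mucin, stood at 285, 193 and 197 CPM in standard medium and at 334, 374 and 337 CPM in Wnt3-CM (log2 0.63, SE 0.19, edgeR adjusted p = 0.019), a call just over the fold threshold. It was lost without replicate 2 or 3 of standard medium (0.53 and 0.55) and without replicate 2 of Wnt3-CM (0.58). Clca1, a protease of the mucus, rose by 1.60 and S100a6 by 1.11 on the log2 scale. Zg16, a lectin of the mucus that binds bacteria, fell from 155, 159 and 161 CPM to 32.1, 58.5 and 55.9 CPM (log2 -1.70, SE 0.17, edgeR adjusted p = 9.76e-06), and Galnt12 fell by 0.69. With 4-OHT, 3 were called higher and 3 lower, and Clca1, Muc2 and Zg16 kept their direction and their call.

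Most secretory transcription factors did not pass the test. Atoh1, the factor that commits cells to the secretory lineage, stood at 19.3, 19.3 and 18.1 CPM in standard medium and at 19.6, 18.5 and 19.4 CPM in Wnt3-CM (log2 0.02, SE 0.09, edgeR adjusted p = 0.872). Of 13 factors, 2 were called higher (Pou2f3, the tuft cell factor, 0.94, and Neurog3, the enteroendocrine factor, 0.77) and 2 lower (Bhlha15, a factor of secretory capacity, -1.22, and Foxa2, -0.96). The median was -0.19, and with day 7 as the reference it was -0.64, with 0 factors called higher and 8 lower by edgeR, Atoh1 (-0.79) among them. Leaving out replicate 1 of standard medium gave 2 called higher and 3 lower, with a median of -0.08. Notch signals hold progenitors out of the secretory lineage, and of 16 Notch pathway genes 5 were called lower and 2 higher (the ligand gene Jag1 and the coactivator gene Maml1). The receptor gene Notch1 (-1.10), the direct target genes Hes1 (-1.05) and Nrarp (-1.27) and Lfng (-1.28), an enzyme that modifies the receptor, were lower. Hes1 stood at 94.9, 90.3 and 90.3 CPM and at 45, 42.6 and 45 CPM, and Atoh1, which Hes1 represses, differed by less than the spread between replicates. With 4-OHT, 0 secretory factors were called by edgeR and 2 Notch genes, Hes1 and Lfng, were called lower.

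**Figure D3:**
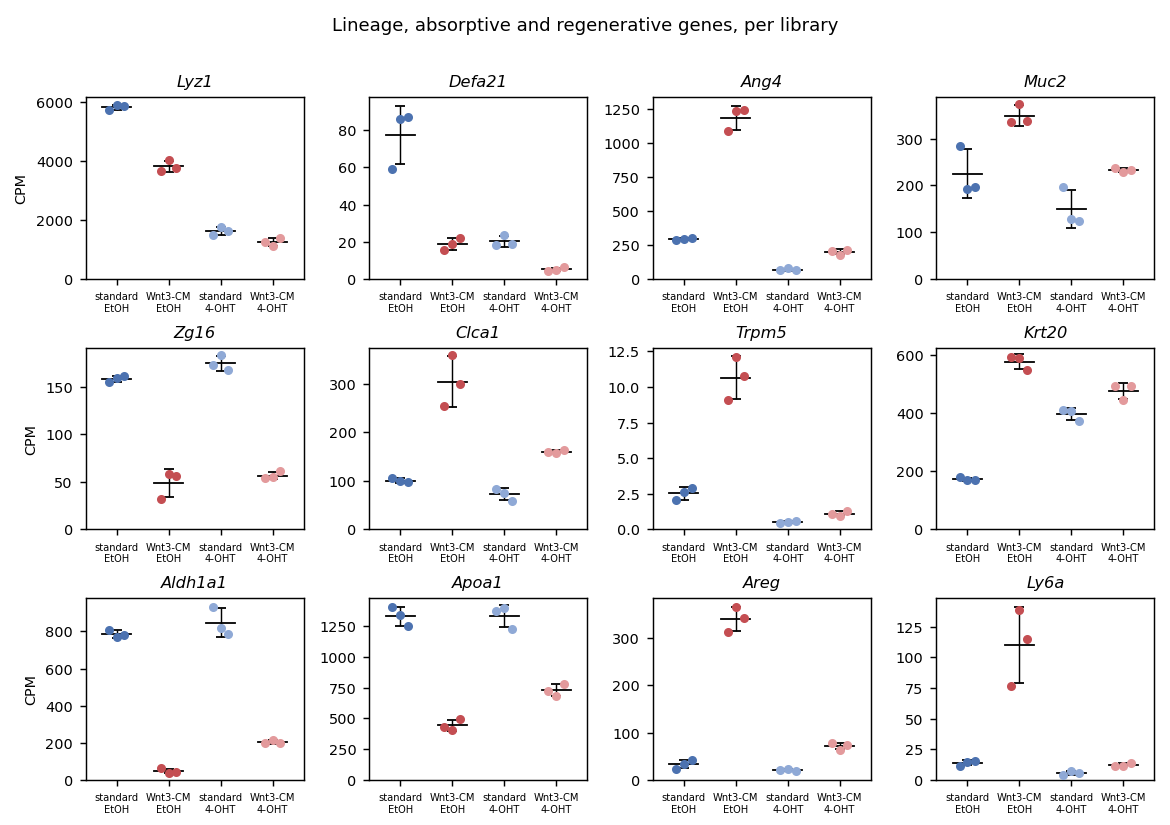
CPM (linear vertical axes starting at 0) of 12 genes of the epithelial lineages in the 4 day 10 groups, with a point for each library and the mean ± SD of 3 libraries. In the EtOH groups Ang4, Clca1, Trpm5, Krt20, Areg and Ly6a are higher in Wnt3-CM, and Lyz1, Defa21, Zg16, Aldh1a1 and Apoa1 are lower.

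Tuft cells are rare chemosensory cells that signal to immune cells through interleukin-25. Of 16 tested markers, 12 were called higher and 2 lower, with a median log2 difference of 2.07, while the counts were small. Under a filter that asked each library for 10 counts or more, 3 markers could be tested, of which 0 were called higher and 2 lower by edgeR (median -0.97). Against standard medium of day 7, 8 of 16 were called higher and 2 lower, with a median of 0.69. Trpm5, the cation channel of taste and tuft cells, stood at 2.04, 2.64 and 2.89 CPM in standard medium and at 9.11, 12.1 and 10.8 CPM in Wnt3-CM (log2 2.08, SE 0.16, edgeR adjusted p = 1.72e-09). Avil (2.91) and Rgs13 (2.05) rose as well. Dclk1, a widely used tuft marker, had 1, 1 and 0 counts in standard medium and 44 in all in Wnt3-CM, a ratio of 23.5 (95% interval 6.12 to 200). The receptor gene Il17rb (-1.07) and the enzyme gene Hpgds (-0.98) were lower, Hpgds not against day 7 (0.14, edgeR adjusted p = 0.396). With 4-OHT, Trpm5 stood at 0.426, 0.523 and 0.616 CPM against 1.1, 0.975 and 1.27 CPM. There, 3 markers were called higher and 2 lower. Of the 16 markers, 6 were above each standard-medium vehicle library of days 3 to 10, and Trpm5 was not one of them, because the highest of those libraries reached 11.4 CPM.

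Enteroendocrine cells make gut hormones, and 5 of 26 markers were expressed enough to test. Of these, 3 were called higher, Cpe, Neurog3 and Pax4, and Pax4 lost its call with upper quartile normalization, no filter, DESeq2, the 6 libraries alone and 4 of the 6 fits without 1 library. The largest was Cpe, a peptidase that processes hormones, from 1.22, 0.659 and 0.558 CPM to 3.32, 4.58 and 3.4 CPM (log2 2.20, SE 0.28, edgeR adjusted p = 1.27e-06). Against standard medium of day 7 the median of the 5 genes turned from 0.68 to -0.63. There, 1 was called higher and 3 lower, Pax4 (-0.75, edgeR adjusted p = 0.00643) among the lower. Where each library had to hold 10 counts, 2 genes were tested and 1 was called (median 0.21). Chga, the general marker of these cells, had 0, 0 and 0 counts in standard medium and 1, 2 and 1 in Wnt3-CM, too few for a test.

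Enterocyte genes moved in both directions. Of 32 brush border enzymes and transporters, 14 were called higher and 8 lower, with a median of 0.40, and of 25 villus tip and differentiation genes 13 were called higher and 1 lower, with a median of 0.60. Of these 25, 8 were called higher and 3 lower when day 7 was the reference (median 0.27). The 32 brush border genes had 11 called higher and 8 lower with that reference (median 0.27). Without replicate 1 of standard medium at day 10, it was 16 and 8 (median 0.64). Krt20, a keratin of differentiated cells, stood at 179, 169 and 169 CPM in standard medium and at 595, 590 and 549 CPM in Wnt3-CM (log2 1.75, SE 0.07, edgeR adjusted p = 2.71e-14). Slc10a2, the ileal bile acid transporter, stood at 4.96, 7 and 6.95 CPM and at 31.4, 35.1 and 34 CPM (log2 2.41, SE 0.14, edgeR adjusted p = 4.82e-11). Slc28a2, a nucleoside transporter (4.80), and the factor Maf (2.75), both of the villus tip list, rose further. Slc6a19, which takes up neutral amino acids, fell from 157, 84.1 and 92.7 CPM to 16.4, 6.54 and 6.49 CPM (log2 -3.51, SE 0.46, edgeR adjusted p = 0.000209), with replicate 1 the highest library in each medium. The enzymes Treh (-2.48), which splits trehalose, and Anpep (-1.94), a peptidase, fell as well. Alpi, intestinal alkaline phosphatase, stood at 655, 368 and 372 CPM and at 740, 464 and 523 CPM, groups that overlapped (log2 0.31, SE 0.30, edgeR adjusted p = 0.429). With 4-OHT, 2 brush border genes were called higher and 5 lower, and 5 villus tip genes higher and 1 lower.

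Of 24 genes of lipid uptake and lipoprotein assembly, 11 were called lower and 3 higher (Apob, Acsl5 and Npc1l1), with a median of -0.59. Where each library had to hold 10 counts, 21 were tested, with 8 called lower and 3 higher (median -0.35). Fabp1, a fatty acid carrier of the proximal intestine, stood at 220, 260 and 251 CPM in standard medium and at 61.8, 37.2 and 46.9 CPM in Wnt3-CM (log2 -2.32, SE 0.15, edgeR adjusted p = 1.16e-07). Cyp3a11 (-3.68), a drug-metabolising oxidase, the fatty acid transporter gene Cd36 (-3.11) and Fabp2 (-2.11) fell as well, and Apoa1, the main protein of high-density lipoprotein, fell from 1405, 1340 and 1248 CPM to 429, 406 and 496 CPM (log2 -1.58). With 4-OHT, 9 of the 24 were called lower and 0 higher, and Fabp1 was 171, 192 and 191 CPM in standard medium and 209, 188 and 231 CPM in Wnt3-CM. The Fabp1 contrasts differed (log2 -2.50, edgeR adjusted p = 4.43e-06).

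Retinoid genes turn vitamin A into retinoic acid or respond to it. Of 14 tested, 7 were called lower and 3 higher, with a median of -0.52. Aldh1a1, an enzyme that makes retinoic acid, stood at 809, 767 and 778 CPM in standard medium and at 61.3, 39.3 and 44.9 CPM in Wnt3-CM (log2 -4.02, SE 0.13, edgeR adjusted p = 2.08e-12). Adh4, a retinol dehydrogenase, stood at 37.2, 24.2 and 26.6 CPM and at 0.429, 0.426 and 0.372 CPM (log2 -6.14, SE 0.30, edgeR adjusted p = 2.96e-10). Adh1 (-3.36) and Rdh7 (-3.28), of the same step, fell too. The fall was smaller but called with 4-OHT for each of these 4 genes, Aldh1a1 going from 933, 820 and 785 CPM to 201, 216 and 196 CPM (log2 -2.05, edgeR adjusted p = 6.12e-09).

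Of 13 fatty acid synthesis genes, 8 were called lower and 1 higher (Me1, which lost its call with no filter on low counts and in 5 of the 6 fits that left out 1 library), with a median of -0.78, and of 24 sterol synthesis genes 7 were called lower and 0 higher, with a median of -0.27. Scd1, the desaturase that makes oleic acid, stood at 741, 801 and 840 CPM in standard medium and at 224, 154 and 162 CPM in Wnt3-CM (log2 -2.14, SE 0.12, edgeR adjusted p = 6.95e-10). The desaturase genes Fads2 (-1.32) and Fads1 (-1.31) and Acss2 (-1.01), which makes acetyl-CoA from acetate, fell by less. In the sterol list Dhcr7 (-1.12), the enzyme of the last step to cholesterol, Insig1 (-1.10), which holds back the SREBP factors, and Ebp (-0.86) fell, while Cyp51 (-0.11) and Sqle (0.06) did not pass. With 4-OHT, 2 fatty acid genes were called higher, 0 sterol genes were called by edgeR, and Scd1 was 1209, 1131 and 1159 CPM in standard medium against 1297, 1568 and 1315 CPM in Wnt3-CM. The difference between the contrasts was called lower for 11 of the 13 and 8 of the 24 genes.

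Of 23 hypoxia and glycolysis genes, 7 were called higher and 1 lower (Ndrg1) with EtOH, and 12 higher and 1 lower with 4-OHT. The hexokinase genes Hk1 (1.58) and Hk2 (1.52), the glucose transporter gene Slc2a1 (1.31) and the growth factor gene Vegfa (1.31) led the list in vehicle-treated organoids. Hk2 stood at 46.9, 45.5 and 51.5 CPM in standard medium and at 142, 143 and 128 CPM in Wnt3-CM. The median of the list was 0.31 with EtOH and 0.63 with 4-OHT, and 6 members had a called difference between the contrasts, each with the larger value with 4-OHT. Against standard medium of day 7 the median was -0.15, and Vegfa (-0.04) no longer rose.

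Antimicrobial genes and Reg lectins had 4 of 13 members called higher and 5 lower. Reg3a, a lectin that kills bacteria, fell from 82.4, 124 and 120 CPM to 6.91, 7.02 and 10 CPM (log2 -3.77, SE 0.22, edgeR adjusted p = 1.4e-07), and Reg1 fell by 2.15, a fall that was not seen against standard medium of day 7 (-0.0092, edgeR adjusted p = 0.983). Duoxa2 (3.95) and Duox2 (2.83), which together make hydrogen peroxide at the cell surface, rose, Duox2 from 3.35, 6.39 and 7.51 CPM to 25.5, 51.8 and 45.2 CPM. These 4 genes kept their direction and call with 4-OHT. Of 6 genes of the Mediator kinase module, to which CDK8 and CDK19 belong, 1 was called, Med12, from 58.1, 44.9 and 45.6 CPM to 31.6, 26.3 and 26.4 CPM (log2 -0.82, SE 0.11, edgeR adjusted p = 2.95e-06). Its difference with 4-OHT was 0.24, and the contrasts differed (log2 -1.05, edgeR adjusted p = 2.87e-05).

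The 10 largest falls among well-expressed genes were, beside Adh4, those of Spp2, Cfhr2, the metallothionein gene Mt4, the oxidase gene Cyp2c38, Krtap3-1, the sodium-coupled transporter genes Slc5a11 (-4.94) and Slc5a4b (-4.58), Ugt2b5 (-4.71), which joins glucuronic acid to its substrates, and F5 (-4.58), coagulation factor V. Slc5a4b stood at 91, 83.8 and 85.4 CPM in standard medium and at 4.23, 3.09 and 3.56 CPM in Wnt3-CM. Cfhr2 had 195 counts in all in standard medium and 1, 0 and 1 in Wnt3-CM, a ratio of 91.4 (95% interval 25.0 to 760). Spp2 differed widely among replicates, at 28.5, 5.42 and 6.09 CPM against 0.322, 0 and 0.0532 CPM (log2 -6.68, SE 1.80, edgeR adjusted p = 0.0127), and F5 at 10.6, 3.35 and 2.99 CPM had its highest value in the same library. Of these 10 genes, 9 were also called lower with 4-OHT, and Spp2 was the exception (log2 -1.36, edgeR adjusted p = 0.265).

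**Figure D4:**
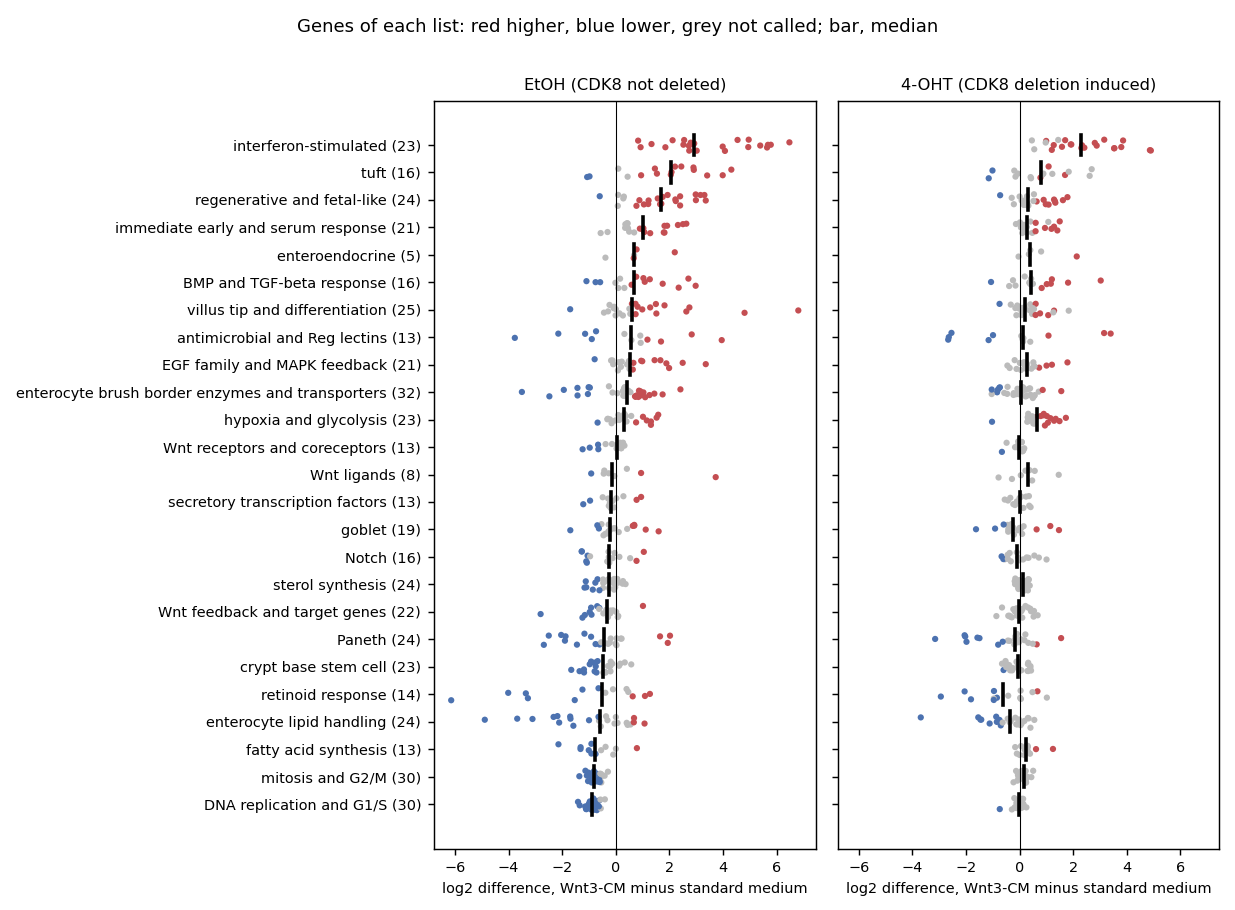
Log2 difference, Wnt3-CM minus standard medium (horizontal axes, shared), for every tested member of 25 gene lists, with EtOH and 4-OHT in separate panels. Points are genes, red where called higher, blue where called lower and grey where not called, and a bar marks the list's median. With EtOH the interferon-stimulated genes lie wholly above 0 (median 2.93) and the 2 cell cycle lists wholly below it (medians -0.89 and -0.82), and with 4-OHT the cell cycle medians are -0.01 and 0.17.

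Genes of other cell types stayed rare in both media. Of 14 fibroblast markers, Col1a2, Dcn, Lum and Thy1 had 0 counts in the 6 libraries, and Col1a1 had 1, 0 and 0 counts in standard medium and 2, 2 and 2 in Wnt3-CM. The summed fibroblast level was 5.02 to 5.63 CPM in standard medium and 8.25 to 9.20 CPM in Wnt3-CM, most of it from Pdgfrb, which was called higher (log2 0.79), and Postn. Vim had 1, 3 and 3 counts in standard medium and 0 in each Wnt3-CM library. Immune markers summed to 3.11 to 4.06 and 3.67 to 4.07 CPM, with Cd3g, Cd8a and Adgre1 at 0. Ptprc, the pan-leukocyte marker CD45, had 2, 1 and 0 counts in standard medium and 7, 6 and 5 in Wnt3-CM, and its part in the results was not tested. In the immune list 0 of 2 tested members were called by edgeR, as in the endothelial and neural list (3.84 to 5.07 and 3.86 to 6.01 CPM). Pancreas and stomach markers summed to 31.2 to 37.1 CPM and to 18.7 to 21.7 CPM, with Prss1 at 0, and 4 of 6 tested were called lower, Pnlip (-3.99) and Ctrb1 (-3.18) the furthest. Where each library had to hold 10 counts, only 1 of these markers could be tested, and it was not called (log2 -0.17). Of 13 pan-epithelial markers, 5 were called higher, Krt18 (1.05), Vil1 (0.86), Cdh17 (0.85) and Cdh1 (0.79) the furthest, and 1 lower (Cdx1). The 4 tested Y-linked genes had log2 differences from 0.09 to 0.47 and none was called. In bulk RNA, fewer cells of a type and less RNA per cell cannot be told apart, which holds for each lineage above. Replicate 3 of Wnt3-CM with 4-OHT held 70 counts of Vim and 18 of Sox10, genes of mesenchyme and glia, above the other 11 libraries.

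The standard-medium vehicle organoids were also sequenced at days 3, 5 and 7, and these libraries give the levels of the same genes at other days. Time in culture was not separated from other differences between these libraries, and mitochondrially encoded genes took 2.51 to 5.39% of counts at days 3 to 7. Of all genes tested, 32% had the 3 Wnt3-CM libraries beyond all 12 standard-medium vehicle libraries, and among the 3346 called genes 2172 (64.91%) did. In the interferon-stimulated list 22 of 23 genes were above all 12 libraries, the exception being Mx1. Of 24 regenerative genes, 18 were above them too, against 17.2% of all genes tested. Axin2 ranged from 134 to 220 CPM over the 12 libraries, and the Wnt3-CM values lay below that range. Of the lists that fell, 24 of 30 replication genes, 21 of 30 mitosis genes, 11 of 23 stem cell genes and 10 of 22 Wnt target genes were below the 12 libraries, against 14.8% of all genes. The choice of day also moved other lists. With day 7 in place of day 10, the genes called lower went from 5 to 8 of the 16 Notch genes, from 3 to 6 of the 19 goblet genes and from 1 to 6 of the 23 hypoxia and glycolysis genes. The genes called higher went from 0 to 2 of the 13 Wnt receptors, from 4 to 7 of the 13 antimicrobial genes and from 3 to 1 of the 14 retinoid genes, of which 9 in place of 7 were called lower. The median went from -0.52 to -1.46 for the retinoid genes, from -0.59 to -1.00 for lipid handling and from 1.00 to 0.46 for the immediate early genes. Id2, Lrig1, Maml1, Cdx1, Fzd6, Smoc2, Me1, Galnt12, Hk1, Cdh1 and Crip1 kept their direction against day 7 and lost their call. Lyz1, Neurog3 and Pou2f3 stayed within the range of the time course, Lyz1 running from 2005 to 5751 CPM, and Ascl2, Defa2, F5, Fzd6, Fzd9, Galnt12, Hk1, Pdgfrb, Reg1, Spp2, Trpm5 and Vegfa overlapped it. Defa2 ran from 2.32 to 14.2 CPM over the 12 libraries.

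**Figure D5:**
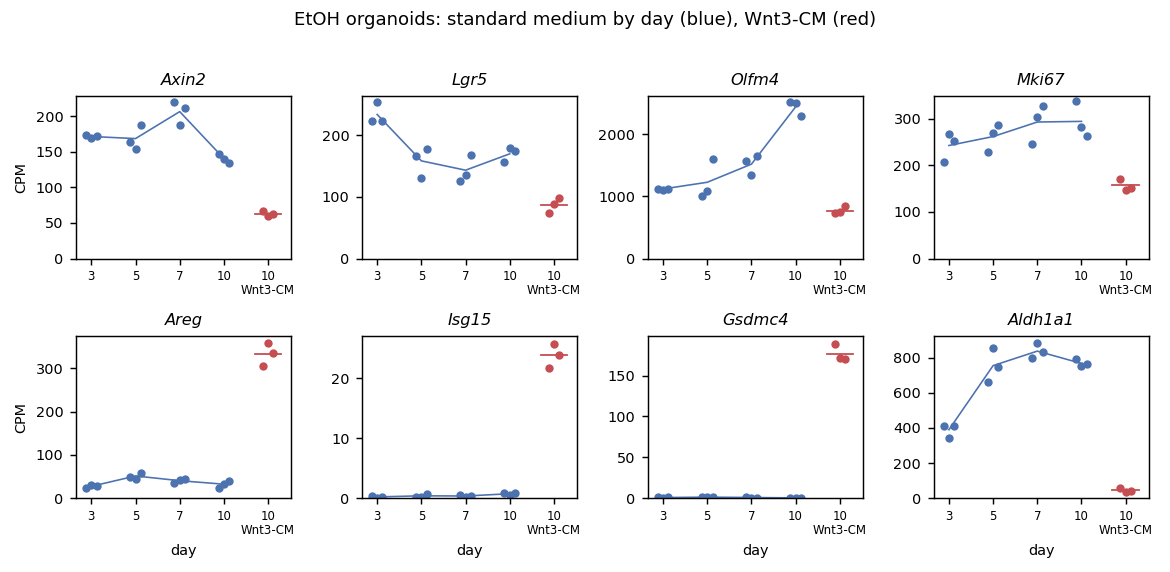
CPM (linear vertical axes starting at 0) of Axin2, Lgr5, Olfm4, Mki67, Areg, Isg15, Gsdmc4 and Aldh1a1 in standard medium with EtOH at days 3, 5, 7 and 10 (blue points are libraries, the line joins the means) and in Wnt3-CM with EtOH at day 10 (red points, bar at the mean), normalized over these 15 libraries. The Wnt3-CM points lie outside the standard-medium range of the 4 days for each of the 8 genes, that range being 134 to 220 CPM for Axin2 and 342 to 881 CPM for Aldh1a1.

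Vehicle and 4-OHT contrasts use different libraries but the same pair of count tables, so a difference that came with the table would enter both. Of the 1698 genes called higher with EtOH, 562 were also called higher with 4-OHT and 86.93% had the same sign, and of the 1648 called lower, 457 were also called lower and 77.55% had the same sign. In opposite directions, 26 genes were called. Of the 3346 genes, 1448 (43.28%) had a called difference between the contrasts. These genes were chosen by their contrast with EtOH. Over all 1911 genes with a called difference between the contrasts, whatever their contrast with EtOH, the difference between media was larger with EtOH in 1657 (86.71%). The 4 gasdermin genes, the 4 retinoid enzyme genes and 19 of the 23 interferon-stimulated genes named above were called in both treatments. The cell cycle, sterol, fatty acid and Wnt target lists had few or no genes called lower with 4-OHT, and the interaction was called for most or part of their members as counted above.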

How the data were processed

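Poly-A RNA of the organoids was sequenced as 100 bp paired-end reads. The authors deposited raw counts of reads per gene, in separate tables for the Wnt3-CM and the standard-medium libraries, and the submitters' processing notes name STAR 2.5.2, featureCounts, Subread 1.6.3 and mm10. Whether counting used strand is not given in the sources used here. The tables were joined by gene identifier (54752 genes). The 12 libraries of day 10 (4 groups of 3) were fitted together with edgeR 4.0.16 (R 4.3.3), with filterByExpr by group, TMM normalization and the robust quasi-likelihood F test, and p-values were adjusted over 14337 genes by Benjamini-Hochberg. Calls required adjusted p < 0.05 together with more than 1.5-fold change. Values per library are CPM after TMM. For the range over days, 15 vehicle libraries were normalized together. Scripts were tested on simulated counts.

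Replicates of a group differed by more than sampling noise, replicate 1 the most in each group.

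Named genes were 14 fixed genes (Wnt3, Axin2, Lgr5, Olfm4, Ascl2, Lyz1, Atoh1, Muc2, Chga, Dclk1, Alpi, Mki67, Cdk8 and Cdk19), in each list up to 4 called members with the largest change among those with a mean of 50 or more counts where they were higher, and the 10 largest rises and 10 largest falls with groups that did not overlap, predicted genes left out. Other list members with values were chosen after their values were seen. The comparison, lists and members were chosen with earlier results of these data known. Promoter windows came from RefSeq (GRCm38.p6). A contrast between tables without Wnt3-CM was not run, because 12 columns could be tied to no sample and were not used. Alternatives were other normalizations, filters and tests (DESeq2 1.42.0, limma 3.58.1), a replicate block, the 6 libraries alone, day 7 as reference, no mitochondrial genes and each replicate left out. Some genes are not reported here.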

Additional observations from a re-analysis of the deposited data

Results flagged for a closer look

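The named genes given here were flagged because their difference between the media was not the same with EtOH as with 4-OHT, by the edgeR interaction test (adjusted p under 0.05 and a fold over 1.5 for the difference itself). Of 120 named genes, 74 met this, 28 with a higher and 46 with a lower value with EtOH. The sign of the medium contrast was the same in both treatments for 61 of them. The named genes were chosen for a large contrast with EtOH or by name, so a larger contrast with EtOH follows in part from the choice, as does the share that met this. Each value below is the log2 difference of the contrasts, EtOH minus 4-OHT. The cause of these differences was not tested.

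Among the interferon-stimulated and most raised genes, the values were 3.32 for Ifit3, 1.92 for Usp18, 2.12 for Oasl2, 1.92 for Oas3, 2.57 for Rtp4, 2.21 for Slc14a1 and 3.84 for Fam129a. In the regenerative and EGF lists they were 1.57 for Areg, 2.79 for Il1rn, 3.45 for Ly6c1, 1.37 for Cd55, 1.77 for Btc and 0.98 for Dusp6. Immediate early genes followed with 1.34 for Fos, 1.01 for Fosl1, 1.22 for Junb and 0.87 for Klf6. BMP and TGF-beta genes had 1.85 for Bmp2, 1.77 for Bmp8b and 0.90 for Tgfbi. Differentiation and lineage genes with a positive value were Slc28a2 with 3.54, Maf with 1.68, Slc10a2 with 1.55, Trpm5 with 1.00 and S100a6 with 1.47, and those of the marker lists were Krt18 with 0.83, Vil1 with 0.60 and Pdgfrb with 0.68.

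The Wnt and stem cell genes had negative values, which were -1.12 for Axin2, -0.87 for Lgr5, -1.14 for Olfm4, -0.96 for Ephb3, -0.70 for Smoc2, -1.17 for Nav1 and -0.76 for Aqp4. Cell cycle genes had -1.35 for Mki67, -1.14 for Birc5, -1.00 for Cdca3, -1.15 for Ttk, -1.13 for Kif20a, -1.30 for Gins2, -1.23 for Cdc6 and -1.11 for Chaf1a. Among Notch, secretory and tuft genes the values were -0.67 for Lfng, -0.73 for Notch1, -0.82 for Nrarp, -0.87 for Bhlha15, -0.63 for Galnt12, -1.11 for Reg3a and -1.85 for Il17rb. The Mediator gene Med12 had -1.05.

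Lipid synthesis genes had -2.40 for Scd1, -1.22 for Fads2, -1.62 for Fads1, -1.33 for Acss2, -1.02 for Dhcr7, -1.01 for Insig1 and -0.70 for Ebp. For lipid handling the values were -2.22 for Cyp3a11, -1.57 for Cd36, -2.50 for Fabp1 and -0.68 for Fabp2, and for retinoid genes -3.21 for Adh4, -1.97 for Aldh1a1, -2.40 for Adh1 and -1.47 for Rdh7. Brush border genes had -2.46 for Slc6a19, -1.44 for Treh and -1.71 for Anpep. Among the largest falls the values were -3.15 for Cyp2c38, -2.99 for Slc5a11, -1.76 for Slc5a4b and -1.63 for Ugt2b5, and the pancreas marker Pnlip had -1.38.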

How the results depend on the processing

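Medium and count table cannot be told apart under any setting, and a contrast between the tables without Wnt3-CM was not run. The number of called genes (3346) stayed within 1.5 times under each setting with day 10 as reference, from 2689 with at least 10 counts in every library to 3566 with no filter, and upper quartile normalization gave 1583 higher and 1792 lower. Against standard medium of day 7 it was 5490 (2551 higher and 2939 lower), of which 2328 were also called against day 10. Of the genes named by the rule, 6 turned in sign there: Alpi (-0.18), Atoh1 (-0.79), Lyz1 (0.11), Neurog3 (-0.63), Pou2f3 (-0.33) and Vegfa (-0.039). So did other called list members that the report gives, Cdkn1a (-0.28), Hpgds (0.14), Npc1l1 (-0.18), Pax4 (-0.75) and Mx1 (-0.52). Atoh1, level at day 10, also turned with upper quartile normalization (-0.014). Leaving out each replicate in turn gave 3177 to 3335 called genes, 1617 to 1699 higher and 1560 to 1647 lower, 1302 to 1516 with 4-OHT and 1747 to 2003 for the interaction, and Atoh1 ranged from -0.011 to 0.043. Muc2 lost its call with no filter. With replicate 1 of all 4 groups left out, chosen after seeing the data, 3324 genes were called, 1532 with 4-OHT and 2110 for the interaction, and 3010 of the 3346 calls were kept. A fit with the replicate block called 3417, 1529 and 2039 genes. Same-numbered replicates correlated at 0.255, 0.0815 and 0.0943 in their residuals with EtOH and at 0.222, -0.0633 and 0.162 with 4-OHT. The numbers were not taken as pairs, and why replicate 1 correlated the most in both treatments was not tested. Genes with a few counts in one medium have ratios limited by depth.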

Other observations

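Gene families outside the lists were counted by their symbols, after values had been seen and without a test of the family. Of 13 tested H2 genes, which encode antigen-presenting proteins of the major histocompatibility complex, 9 were called higher in Wnt3-CM with EtOH and 0 lower, with a median log2 difference of 0.90, and 5 were called higher with 4-OHT. Of 11 annexin genes, whose proteins bind membranes in the presence of calcium, 8 were called higher and 0 lower, with a median of 1.26, and 4 with 4-OHT. Of 12 PARP genes, 6 were called higher and 1 lower, and of 42 TRIM genes, many of them antiviral ubiquitin ligases, 18 were called higher and 7 lower.

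Of 10 Cyp2c oxidase genes, 6 were called lower and 1 higher, with a median of -1.85. Of 12 carboxylesterase genes (Ces), 10 were called lower and 0 higher, with a median of -0.91, and 5 were called lower with 4-OHT. Of 9 glucuronosyltransferase genes (Ugt), 6 were called lower and 0 higher, and of 8 sodium-coupled transporter genes of the Slc5a family, 5 were called lower and 1 higher. Close copies within the Cyp2c, Ces and Ugt families make the counts of single members uncertain.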
